A study of Homo sapiens with 6 samples.

Results

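Semaphorins, plexins and neuropilins are the ligands, receptors and co-receptors of a guidance system first described in growing axons and also found in blood vessels and tumours. These families were chosen with earlier results of these data known. Members were matched by symbol, as SEMA3 to SEMA7, PLXNA1 to PLXNA4, PLXNB1 to PLXNB3, PLXNC1, PLXND1, NRP1 and NRP2. Of the 46427 gene rows 31 matched, namely 20 semaphorins, 9 plexins and 2 neuropilins. Their mRNA was followed in Hs578T, an established triple-negative breast cancer cell line with mesenchymal features, whose cells carried either a control shRNA (shCTRL, 3 libraries) or an shRNA against CCN3 (shCCN3, 3 libraries). CCN3, also called NOV, encodes a secreted matricellular protein. Both lines had been transduced with a retroviral shRNA vector and were grown in the same serum-containing medium, and knockdown rested on a single CCN3 shRNA, so that an effect of CCN3 and an effect of that shRNA or that line cannot be told apart. The paper states in general that its experiments had at least 3 independent trials. Neither it nor the sample labels say whether the 3 libraries of a group came from separate cultures. The p-values therefore measure the spread between these libraries, which may be technical.

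Class 3 semaphorins are secreted and, in most cases, bind a neuropilin, which has a short cytoplasmic tail and relies on a plexin to carry the signal into the cell. Classes 4 to 7 are held in the membrane and mostly bind plexins directly, and SEMA7A, with its lipid anchor, also binds integrins. The cytoplasmic part of a plexin holds a GTPase-activating domain for small GTPases of the Ras and Rap families, and its signal weakens adhesion and reshapes actin. In tumours SEMA3B and SEMA3F are known as candidate tumour suppressors of the short arm of chromosome 3, and NRP1 also serves as a co-receptor for VEGF.

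The libraries held 56159110 to 68393177 counts. Levels are given in CPM, a gene's counts relative to a library total corrected by TMM factors of 0.983 to 1.02, and the detection floor of 3 counts equalled 0.0435 to 0.0540 CPM. This covers counting error only. CCN3 itself was at 103, 102 and 98.1 CPM in the shCTRL libraries and at 47.4, 47.2 and 46.5 CPM in the shCCN3 libraries, so that the target was lower in each shCCN3 library. VIM lay between 6619 and 7992 CPM, while ESR1, CDH1 and EPCAM stayed below 1 CPM and ERBB2 lay between 72.0 and 82.8 CPM. Of the markers for other cells that carry semaphorin receptors, the endothelial genes CDH5 and CLDN5, the T cell gene CD3E and the neuronal gene RBFOX3 were at 0 in all libraries. The summed level of the 5 endothelial markers was 3.11 to 4.52 CPM in shCTRL and 3.27 to 3.73 CPM in shCCN3 cells, nearly all of it PECAM1. Of the leukocyte markers, PTPRC and CD14 stayed below 1 CPM in all libraries, while CD68, a lysosomal protein that marks macrophages, was at 95.2, 107 and 105 CPM in shCTRL and 59.4, 58.3 and 57.8 CPM in shCCN3 cells. The 4 neuronal markers summed to 352 to 384 CPM in shCTRL and 399 to 447 CPM in shCCN3 cells, mostly TUBB3, while SNAP25 was at 5.11, 4.68 and 4.16 against 2.48, 3.33 and 3.64 CPM and SYT1 at 12.5, 12.2 and 11.3 against 6.49, 6.66 and 7.16 CPM. The part of these differences in the results below was not tested.

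Of the 31 members, 28 had enough counts to be tested, and 17 of these differed between the groups by edgeR's quasi-likelihood test at an adjusted p below 0.05. In shCCN3 cells 12 were lower and 5 were higher than in shCTRL cells. The 12 include SEMA4A, which entered the test only through its counts in shCTRL cells, and without it 16 members were called, 11 lower and 5 higher. With SEMA4A included, the 17 called members were 60.7% of those tested. Beside this, 33.4% of all 17419 genes tested were called, 17.3% lower and 16.2% higher. The members were chosen with earlier results of these data known, so these shares are a description and not a test. The groups did not overlap for 19 of the 28 tested members, SEMA4A among them, against 46.3% of all genes tested. The median log2 fold change was -0.28 over the tested members and 0.01 over all genes tested, and 18 tested members had a negative and 10 a positive value. At least 1.5-fold differences were seen in 9 of the 17, again with SEMA4A among them. The share of all tested genes with such differences was not counted, so nothing is read from this number. A lower level in such bulk RNA can mean fewer cells with the mRNA or less mRNA per cell, and these cannot be told apart.

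Most of the system was expressed in these cells. A group mean of at least 1 CPM was reached by 23 members and of at least 10 CPM by 18. The remaining 8 members, below 1 CPM in both groups, were SEMA3E, SEMA4A, SEMA4D, SEMA5B, SEMA6A, SEMA6D, PLXNA4 and PLXNC1. The plot of levels by library shows the 23 expressed members.

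**Figure D1:**
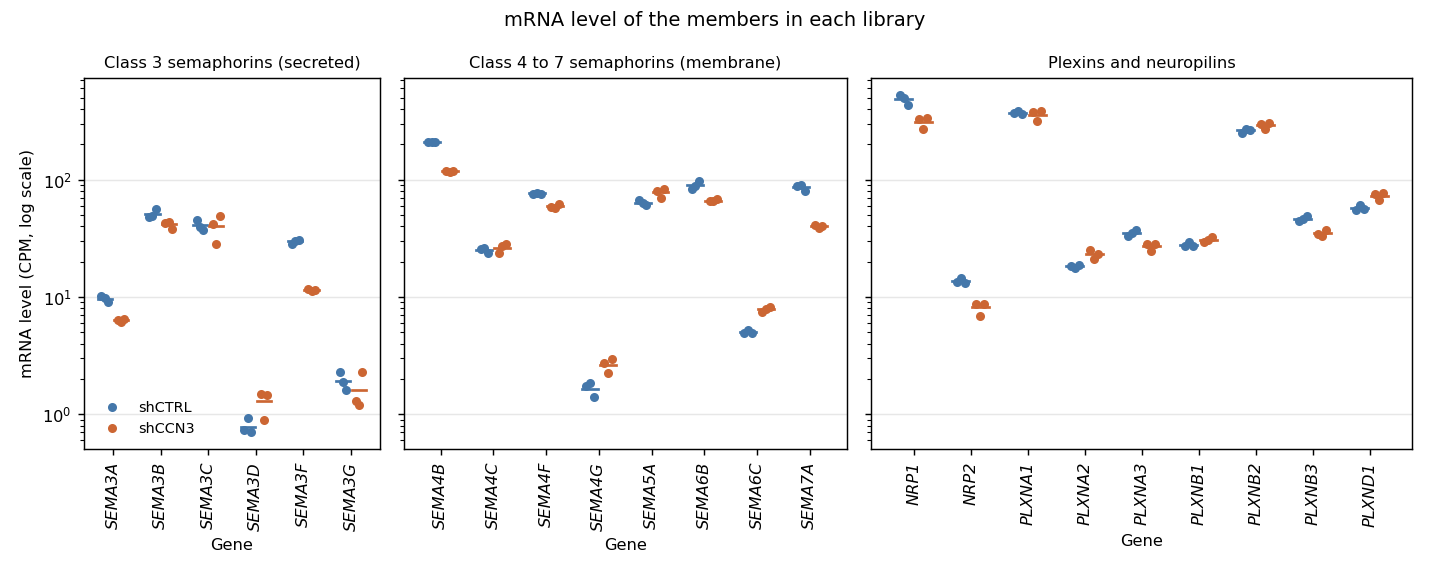
mRNA level of the 23 members with a group mean of at least 1 CPM, in CPM on a log axis; each point is a library (blue shCTRL, orange shCCN3, n = 3 each) and each bar a group mean. The shCCN3 points lie below all shCTRL points for SEMA3F, SEMA4B, SEMA7A, NRP1 and NRP2, and above them for SEMA6C and PLXND1.

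The 3 ligands that fell furthest among the expressed members, SEMA3F, SEMA7A and SEMA4B, and the ligand with the clearest rise, SEMA6C, are shown with the 250 bases before their annotated start, as the place from which their transcripts begin. The windows come from RefSeq on GRCh38.p14, are written 5′ to 3′ on the strand of the gene, and carry the GC box GGGCGG, the binding site of Sp1-type factors, in capitals wherever it occurs on either strand.
SEMA3F, chr3:50154808-50155057, plus strand: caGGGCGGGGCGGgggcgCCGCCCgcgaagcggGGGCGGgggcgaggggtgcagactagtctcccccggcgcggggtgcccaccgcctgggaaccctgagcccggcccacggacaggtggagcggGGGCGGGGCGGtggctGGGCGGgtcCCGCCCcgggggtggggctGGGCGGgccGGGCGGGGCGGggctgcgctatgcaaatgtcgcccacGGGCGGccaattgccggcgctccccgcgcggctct
SEMA7A, chr15:74433959-74434208, minus strand: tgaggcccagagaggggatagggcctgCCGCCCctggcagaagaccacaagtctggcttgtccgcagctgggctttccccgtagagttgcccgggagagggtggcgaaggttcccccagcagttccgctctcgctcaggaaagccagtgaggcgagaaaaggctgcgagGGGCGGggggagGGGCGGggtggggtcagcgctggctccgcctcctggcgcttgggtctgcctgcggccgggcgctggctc
SEMA4B, chr15:90184670-90184919, plus strand: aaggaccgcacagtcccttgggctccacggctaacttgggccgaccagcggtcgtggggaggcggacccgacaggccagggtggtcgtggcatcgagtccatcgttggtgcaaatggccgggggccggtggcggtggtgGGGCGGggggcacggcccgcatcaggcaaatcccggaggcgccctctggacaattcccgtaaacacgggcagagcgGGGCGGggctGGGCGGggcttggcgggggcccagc
SEMA6C, chr1:151146632-151146881, minus strand: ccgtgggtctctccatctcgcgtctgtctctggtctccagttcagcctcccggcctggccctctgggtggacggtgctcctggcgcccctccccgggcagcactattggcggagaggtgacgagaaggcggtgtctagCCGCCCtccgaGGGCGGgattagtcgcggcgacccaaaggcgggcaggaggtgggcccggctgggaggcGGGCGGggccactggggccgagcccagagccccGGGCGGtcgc
The SEMA3F window held 12 GC boxes, some of them overlapping, and was 82% G and C, whereas the windows of SEMA7A, SEMA4B and SEMA6C held 3, 3 and 4. GC boxes occurred in 42.6% of all 35116 RefSeq windows of this length, and here the gene that rose held them as well as those that fell. None of the 4 windows held the E-box CACGTG, the sequence CATGTG, the AP-1 sequence TGANTCA or the TEAD sequence GGAATG on either strand, which occurred in 6.34%, 9.42%, 6.57% and 11.9% of all windows. These matches describe letters only and were not tested against binding. SEMA3F, SEMA4B and SEMA7A have further annotated starts with windows of their own, so the matches depend on the start chosen. The windows of the other SEMA3F starts held 2 and 0 GC boxes, and the one at chr3:50155074-50155323 held 1 GGAATG. Of all members, 27 of 31 had at least 1 window.

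Among the secreted class 3 semaphorins, SEMA3F, SEMA3A and SEMA3B fell in shCCN3 cells, which makes 3 lower and 0 higher among the 6 tested of 7 members. That was 50% called, beside the 33.4% of all genes tested, and the median log2 fold change was -0.28. SEMA3F, a repulsive ligand that prefers NRP2, was read 1957, 1893 and 2070 times in the shCTRL libraries and 807, 624 and 737 times in the shCCN3 libraries. Scaled to CPM these were 28.5, 30.1 and 30.8 against 11.7, 11.2 and 11.5. The groups were far apart beside their narrow spread, with means of 29.8 ± 1.21 and 11.5 ± 0.241 CPM (SD, n = 3 each). The difference was 2.60-fold, a log2 fold change of -1.38 (standard error, SE, of 0.071 and adjusted p of 1.45e-06), and it stayed between -1.41 and -1.35 with any library left out.

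SEMA3A, the best known collapsing factor for growth cones and a ligand of NRP1, was at 10.2, 9.79 and 9.04 CPM in shCTRL and 6.34, 6.10 and 6.46 CPM in shCCN3 cells. No shCCN3 library reached the lowest shCTRL library, and the log2 fold change was -0.62 (SE 0.091, adjusted p = 0.000749). SEMA3A lies on chromosome 7, where the median over 821 tested genes was -0.43 on the log2 scale, and -0.47 over its 24 nearest tested neighbours. Against the chromosome its difference was -0.19, and against these neighbours -0.15. Within 1000 kb of the SEMA3A start, 2 other genes were tested and neither was called. These were HNRNPA1P8 (0.15, adjusted p = 0.753) and SEMA3D (0.72, adjusted p = 0.0545).

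SEMA3B, which can bind both neuropilins, gave 47.9, 49.0 and 56.2 CPM in shCTRL and 42.5, 43.6 and 38.2 CPM in shCCN3 cells. The gap between the groups was narrow and rested on the upper 2 shCCN3 libraries staying just under the lower 2 shCTRL libraries. A log2 fold change of -0.30 resulted (SE 0.083, adjusted p = 0.0207). The adjusted p was 0.0531 with a replicate block, and the call was also lost without shCTRL replicate 2 or 3 or shCCN3 replicate 1 or 3, with adjusted p-values of up to 0.0819. Against its 24 nearest tested genes the difference of SEMA3B was -0.20.

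The other class 3 members did not pass the test or were not tested. SEMA3C, a ligand that favours the growth of some tumours, was at 45.7, 39.5 and 37.1 CPM in shCTRL and 42.0, 28.3 and 49.2 CPM in shCCN3 cells. Its shCCN3 libraries spanned the whole shCTRL range, and its log2 fold change of -0.03 (SE 0.174, adjusted p = 0.911) turned positive without shCTRL replicate 1 (0.06) or shCCN3 replicate 2 (0.16). It too lies on chromosome 7, 0.40 above the median of that chromosome. SEMA3D had 50, 58 and 47 counts in shCTRL and 103, 50 and 94 counts in shCCN3 cells, with a log2 fold change of 0.72 (adjusted p = 0.0545). One library, shCCN3 replicate 2, lay within the shCTRL range, and without it the log2 fold change of SEMA3D was 0.92 with an adjusted p of 0.00817. SEMA3G stood at 1.92 ± 0.346 CPM in shCTRL and 1.60 ± 0.617 CPM in shCCN3 cells (adjusted p = 0.50). SEMA3E, a ligand of PLXND1 that needs no neuropilin, had 0, 10 and 5 counts in shCTRL and 0, 13 and 6 counts in shCCN3 cells and was not tested.

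SEMA3F and SEMA3B lie 71.2 kb apart on the plus strand of chromosome 3, SEMA3F at 50155058-50189075 and SEMA3B at 50260226-50277546. Despite this closeness their log2 fold changes were -1.38 and -0.30. Within 1000 kb on each side of SEMA3F 45 other genes were tested, with a median log2 fold change of -0.11, and none was as low as SEMA3F. The lowest of them, CDHR4, had a log2 fold change of -1.07 at under 1 CPM and an adjusted p of 0.0780. The antisense transcript SEMA3F-AS1, which overlaps the start of SEMA3F and the printed window, had 0 counts in all 3 shCTRL libraries and 81, 0 and 71 counts in the shCCN3 libraries. The shCCN3 libraries thus differed among themselves, the row was not tested, and without a stated use of strand its reads and those of SEMA3F cannot be told apart where the genes overlap. SEMA3B-AS1 had 7 to 15 counts in all libraries.

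Membrane-bound semaphorins of classes 4 to 7 moved in both directions, with 5 lower, SEMA4A among them, and 3 higher among the 11 tested of 13 members. With SEMA4A included that was 72.7% called, beside the 33.4% of all genes tested. SEMA7A, which signals through PLXNC1 and integrins containing ITGB1, was at 88.7, 89.6 and 80.2 CPM in shCTRL and 41.4, 38.4 and 40.3 CPM in shCCN3 cells. Each shCCN3 library held less than the lowest shCTRL library by a wide margin. Group means were 86.2 ± 5.19 and 40.0 ± 1.54 CPM (SD, n = 3 each), a 2.15-fold difference with a log2 fold change of -1.11 (SE 0.068, adjusted p = 4.03e-06). Its receptor PLXNC1 was below 1 CPM, with 9, 14 and 48 counts in shCTRL and 18, 15 and 16 counts in shCCN3 cells. ITGB1 was abundant, between 845 and 1034 CPM in shCTRL and between 939 and 1222 CPM in shCCN3 cells, and overlapped between the groups (adjusted p = 0.130).

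SEMA7A lies on the minus strand of chromosome 15 at 74409289-74433958. Of the 30 other genes tested within 1000 kb on each side, 1 was as low, and the median was -0.05. This was CPLX3, with a log2 fold change of -1.25 at under 1 CPM, which was not called (adjusted p = 0.165). The same window held ISLR2, which rose by 2.54 on the log2 scale, so that neighbours of SEMA7A moved in opposite directions.

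**Figure D2:**
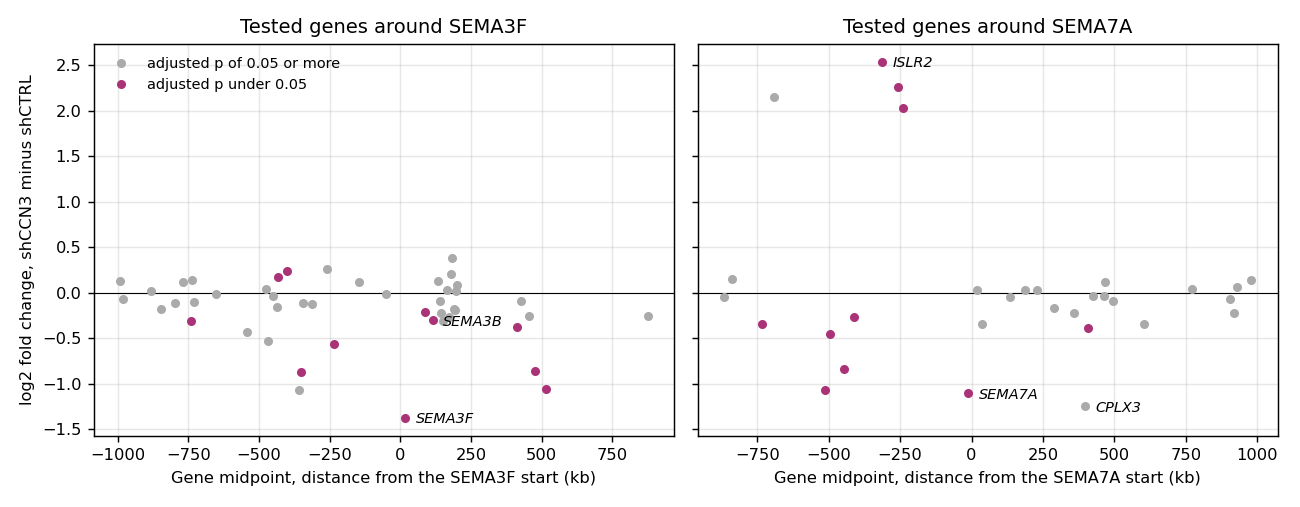
Log2 fold change (shCCN3 minus shCTRL) of the tested genes within 1000 kb of the start of SEMA3F (left) and SEMA7A (right), against the distance of the gene midpoint in kb; purple points have an adjusted p under 0.05. SEMA3F at -1.38 lies below every other gene in its window, while SEMA3B close to it is at -0.30. SEMA7A at -1.11 has CPLX3, which was not called, below it and ISLR2 far above.

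SEMA4B was the most abundant semaphorin per kilobase of exon, at 29.9 CPM per kilobase in shCTRL and 16.7 CPM per kilobase in shCCN3 cells. Unscaled by length it was at 208, 209 and 211 CPM in shCTRL and 119, 115 and 118 CPM in shCCN3 cells. Libraries of a group were almost identical and the groups lay far apart, with a log2 fold change of -0.84 (SE 0.052, adjusted p = 4.52e-06) or a 1.79-fold difference. It is also on chromosome 15, on the plus strand at 90184920-90229661, where 29 other genes within 1000 kb had a median of -0.01 and 2 were as low. With any library left out, SEMA4B kept an adjusted p of at most 0.000149.

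Smaller falls were seen for SEMA6B and SEMA4F. SEMA6B, a ligand of A-type plexins, was at 83.9, 88.2 and 97.3 CPM in shCTRL and 65.6, 65.3 and 67.7 CPM in shCCN3 cells. Its groups did not overlap, and the log2 fold change was -0.44 (SE 0.068, adjusted p = 0.00102). SEMA4F stood at 75.1, 77.6 and 76.0 CPM against 58.2, 57.3 and 61.5 CPM, again without overlap, with a log2 fold change of -0.37 (SE 0.058, adjusted p = 0.00109). SEMA4A was called at the edge of detection, with 12, 13 and 12 counts in shCTRL and 0, 0 and 3 counts in shCCN3 cells. Over the groups this was 3 counts against 37, a ratio of 0.0855 with an exact 95% interval of 0.0169 to 0.270 for counting error. It passed the filter on low counts only through shCTRL cells, and its adjusted p of 0.0130 rose to at most 0.0556 without shCTRL replicate 2 or shCCN3 replicate 1.

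Higher levels were measured for SEMA6C, SEMA4G and SEMA5A. SEMA6C was at 4.93, 5.22 and 4.89 CPM in shCTRL and 7.41, 7.95 and 8.18 CPM in shCCN3 cells. All shCCN3 libraries exceeded all shCTRL libraries, and the log2 fold change was 0.65 (SE 0.096, adjusted p = 0.000786). The median of chromosome 1, where SEMA6C lies, was -0.13. SEMA4G, at 1.73, 1.83 and 1.40 CPM against 2.73, 2.27 and 2.97 CPM, had a log2 fold change of 0.68 (SE 0.174, adjusted p = 0.0143), a call lost without shCCN3 replicate 3 (adjusted p = 0.0530). It overlaps MRPL43, a gene of 71.1 CPM in shCTRL and 68.4 CPM in shCCN3 cells, so its low values are uncertain. SEMA5A, a ligand of PLXNB3 with thrombospondin repeats, was at 67.0, 62.6 and 61.3 CPM in shCTRL and 80.5, 69.8 and 83.8 CPM in shCCN3 cells. The lowest shCCN3 library of SEMA5A stood just above the highest shCTRL library, and its log2 fold change of 0.29 (SE 0.079, adjusted p = 0.0183) lost the threshold without shCTRL replicate 2 or 3 or shCCN3 replicate 1 or 3, with adjusted p-values of up to 0.0781. Against its 24 nearest tested genes the difference of SEMA5A was 0.16.

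The remaining membrane-bound members gave no call. SEMA4C, a ligand of PLXNB2, was at 25.1 ± 1.41 CPM in shCTRL and 26.3 ± 2.31 CPM in shCCN3 cells (n = 3 each, SD, adjusted p = 0.612). SEMA4D, the classical ligand of PLXNB1, had at most 23 counts in any library, namely 23, 5 and 0 in shCTRL and 15, 6 and 22 in shCCN3 cells (adjusted p = 0.602). SEMA6D had 25 to 47 counts per library (adjusted p = 0.637). SEMA5B had at most 8 counts and SEMA6A at most 10 counts in a library, and neither was tested. SEMA6A-AS1, the antisense row of SEMA6A, overlapped between the groups (adjusted p = 0.275), SEMA5A-AS1 was at 0 throughout, and SEMA6A-AS2 had 3 counts in 1 library.

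Plexins, the signalling receptors, moved in both directions, with 2 higher and 2 lower among 9 tested (44.4%, beside the 33.4% of all genes) and a median log2 fold change of -0.05. PLXNA1 and PLXNB2 were the most abundant per kilobase of exon, at 33.9 and 36.2 CPM per kilobase in shCTRL and 32.7 and 39.9 CPM per kilobase in shCCN3 cells. PLXNA1, a partner of neuropilins, was at 369, 381 and 363 CPM in shCTRL and 374, 317 and 382 CPM in shCCN3 cells. Its groups overlapped, with a log2 fold change of -0.05 (SE 0.076, adjusted p = 0.644) that became 0.03 without shCCN3 replicate 2. PLXNB2, which binds class 4 semaphorins, was at 250.3, 272 and 266 CPM against 295, 269.7 and 303 CPM. A single shCCN3 library, replicate 2, fell within the shCTRL range, and without it the log2 fold change of 0.14 (adjusted p = 0.138) became 0.19 with an adjusted p of 0.0174.

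PLXND1, a receptor for SEMA3E and, with neuropilins, for SEMA3C, was at 55.1, 60.7 and 56.3 CPM in shCTRL and 75.6, 66.9 and 76.5 CPM in shCCN3 cells. All its shCCN3 libraries were higher, and it rose by 0.35 on the log2 scale (SE 0.073, adjusted p = 0.00539). PLXNA2, a receptor for class 3 and class 6 ligands, was at 18.2, 17.8 and 18.5 CPM against 24.9, 20.9 and 23.2 CPM, without overlap. Its log2 fold change was 0.34 (SE 0.082, adjusted p = 0.0104), and the adjusted p was 0.0540 without shCTRL replicate 2 and 0.0513 without shCCN3 replicate 1.

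Both plexins of the X chromosome fell. PLXNB3, the receptor of SEMA5A, was at 44.0, 46.0 and 48.7 CPM in shCTRL and 34.7, 32.8 and 37.2 CPM in shCCN3 cells, with a log2 fold change of -0.41 (SE 0.072, adjusted p = 0.00224). PLXNA3, which pairs with NRP2 in the response to SEMA3F, was at 33.1, 34.9 and 37.3 CPM against 28.2, 24.6 and 28.1 CPM, with a log2 fold change of -0.38 (SE 0.080, adjusted p = 0.00547). Neither gene showed overlap between the groups, and the median over tested genes of that chromosome was 0.03. The 24 nearest tested genes had medians of -0.13 for PLXNB3 and -0.08 for PLXNA3, against which the differences were -0.28 and -0.30. Within 1000 kb of PLXNA3 58 other genes were tested, with a median of -0.11, and 8 were as low as PLXNA3. PLXNB3 overlaps the row LOC102723591 and PLXNA3 touches LAGE3, and neither of these rows was called, with log2 fold changes of -0.45 (adjusted p = 0.213) and -0.23 (adjusted p = 0.257). PLXNB1 was at 27.8 ± 1.19 CPM in shCTRL and 30.7 ± 1.45 CPM in shCCN3 cells (n = 3 each, SD, adjusted p = 0.154), with all shCCN3 libraries slightly above the shCTRL libraries. PLXNA4 had 10 to 24 counts per library (adjusted p = 0.374).

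**Figure D3:**
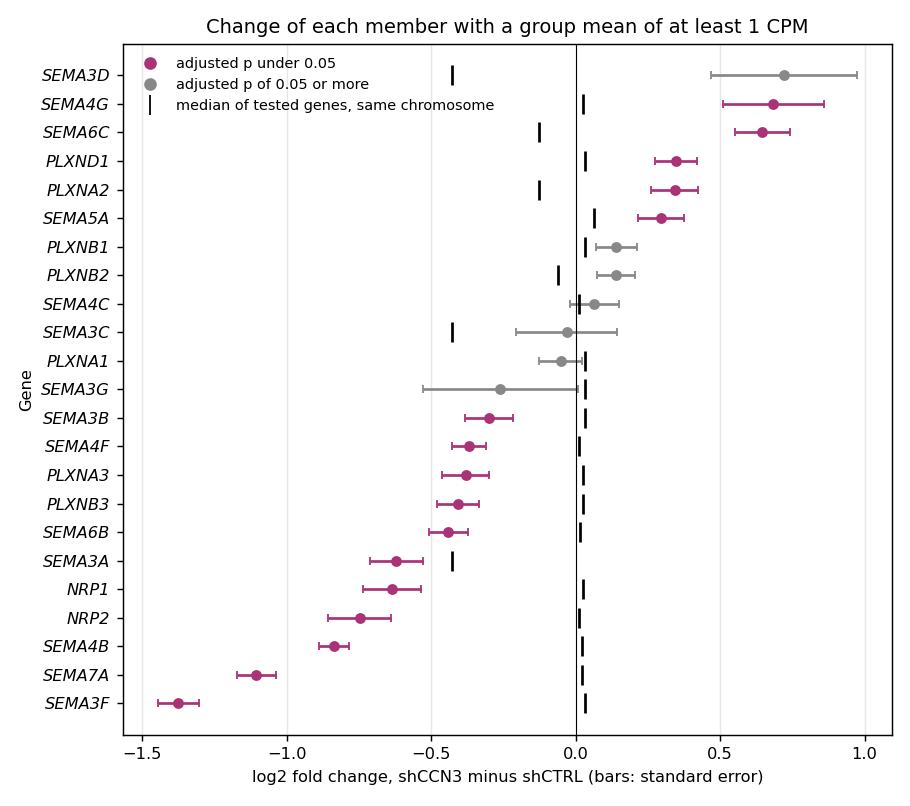
Log2 fold change (shCCN3 minus shCTRL) with standard error for the 23 members with a group mean of at least 1 CPM, ordered by size; purple points have an adjusted p under 0.05 and black ticks give the median of the tested genes of the same chromosome. The values run from -1.38 for SEMA3F to 0.72 for SEMA3D, and the ticks of SEMA3A, SEMA3C and SEMA3D stand at -0.43, the median of chromosome 7.

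Both neuropilins fell. NRP1 was at 523, 495 and 433 CPM in shCTRL and 328, 268 and 337 CPM in shCCN3 cells. The highest shCCN3 library lay well under the lowest shCTRL library, although the libraries of each group were spread. Mean levels were 484 ± 45.8 and 311 ± 37.7 CPM (SD, n = 3 each), and the log2 fold change was -0.64 (SE 0.10, adjusted p = 0.00114), with a range of -0.71 to -0.54 over the fits that each dropped a library. NRP2 was at 13.4, 14.5 and 13.1 CPM in shCTRL and 8.75, 6.93 and 8.79 CPM in shCCN3 cells. It fell by 0.75 on the log2 scale (SE 0.109, adjusted p = 0.000730), again without overlap. NRP1 lies on chromosome 10 and NRP2 on chromosome 2, and tested genes of these chromosomes had medians of 0.03 and 0.01.

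Per kilobase of exon, NRP1 was far more abundant than NRP2 in every library. NRP1 made up 97.7 ± 0.191% of the summed neuropilin level in shCTRL and 97.9 ± 0.0327% in shCCN3 cells (SD, n = 3 each, exact permutation test, two-sided, p = 0.4). The difference in this share was 0.181 percentage points. With NRP1 at nearly the whole sum in both groups, this share could hardly show a change of NRP2, so nothing is read from it about the balance of the co-receptors. NRP1 had the highest level per kilobase of all members in shCTRL cells, 42.0 CPM per kilobase, and 27.0 CPM per kilobase in shCCN3 cells, where PLXNA1 and PLXNB2 stood above it.

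Summed over a family, the ligands and the co-receptors were lower in every shCCN3 library, while the sums of the receptors overlapped. These sums weigh the abundant members most and do not speak for each member. In shCTRL cells SEMA4B and SEMA7A held 25.2% and 19.1% of the semaphorin sum, and NRP1 held 97.7% of the neuropilin sum. Of the 17 tested semaphorins, 6 had a positive log2 fold change. The semaphorins summed to 118, 119 and 119 CPM per kilobase in shCTRL and 82.1, 78.0 and 84.5 CPM per kilobase in shCCN3 cells, a ratio of 0.686. For the neuropilins the sums were 46.3, 44.0 and 38.5 against 29.1, 23.8 and 29.9 CPM per kilobase, a ratio of 0.643. The groups did not overlap for either family, and the exact permutation test gave p = 0.1 (two-sided), the smallest that 3 libraries against 3 allow. The plexins summed to 87.1, 92.4 and 90.1 CPM per kilobase in shCTRL and 94.8, 84.5 and 97.3 CPM per kilobase in shCCN3 cells, and these groups overlapped (ratio 1.03, exact permutation test, p = 0.7).

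**Figure D4:**
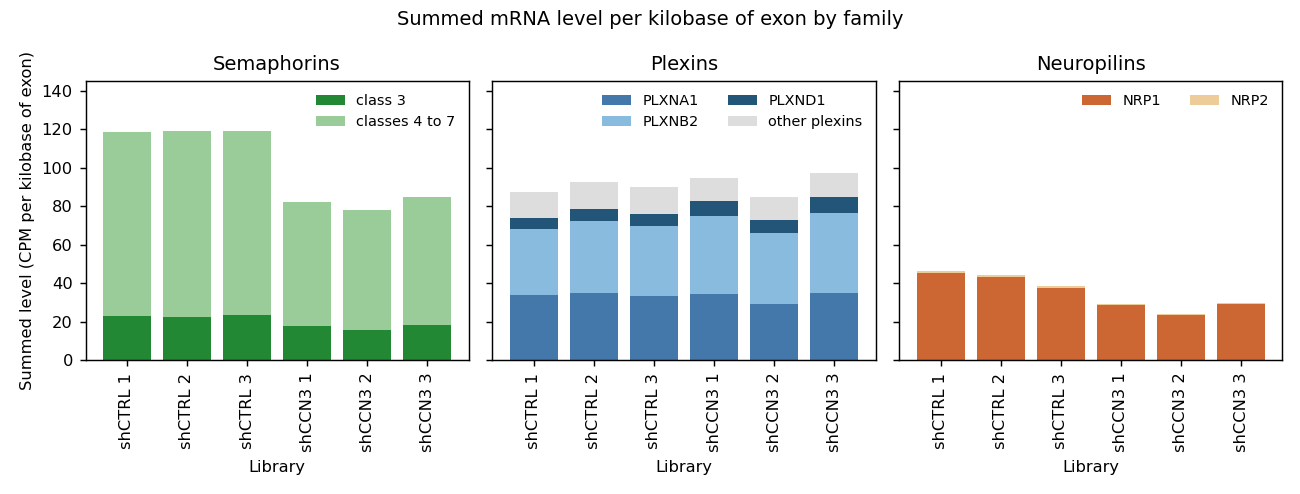
Summed mRNA level in CPM per kilobase of exon, one stacked bar per library, for semaphorins, plexins and neuropilins, with the bars starting at 0 and split by class or gene. Semaphorin sums are 118 to 119 in shCTRL and 78.0 to 84.5 in shCCN3 libraries, plexin sums overlap, and NRP1 forms nearly all of the neuropilin sum.

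Within the semaphorins the secreted class 3 members and the membrane-bound members stood in shCCN3 cells at 0.741 and 0.672 of their shCTRL sums per kilobase. Class 3 accounted for 19.4 ± 0.392% of the semaphorin level in shCTRL and 20.9 ± 0.994% in shCCN3 cells (SD, n = 3 each, exact permutation test, two-sided, p = 0.1). On plain counts the difference was 1.00 percentage points in place of 1.54, with an exact permutation p of 0.3, so that the separation of the groups depended on the length scaling. SEMA4B went from 25.2% to 20.6% of the semaphorin level per kilobase and SEMA7A from 19.1% to 12.9%. SEMA5A went from 4.42% to 7.90%, while its own level rose 1.23-fold and the semaphorin sum stood at 0.686 of its shCTRL value. Of the class 3 level alone, SEMA3F made up 26.8 ± 1.13% in shCTRL and 14.0 ± 1.00% in shCCN3 cells (SD, n = 3 each), with no overlap between the groups. Among the plexins, PLXND1 went from 6.56% to 8.13% of the summed level per kilobase, PLXNB2 from 40.3% to 43.3% and PLXNA1 from 37.7% to 35.4%. These shares of single members separated the groups without overlap, at the smallest exact p of 0.1. A share also moves when the rest of its family moves, and the level of PLXNA1 itself overlapped between the groups.

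Known ligand and receptor pairs could be read side by side, but they were not listed in advance and were not tested as pairs. SEMA3F, its co-receptor NRP2 and its receptor PLXNA3 all fell. Other A-type plexins did not share this direction, as PLXNA2, also a receptor for class 3 ligands, rose and PLXNA1, a partner of neuropilins, was not called. SEMA3A fell along with NRP1, whereas PLXNA1, which completes that receptor, overlapped between the groups. Against the median of chromosome 7 the difference of SEMA3A was only -0.19. SEMA5A was higher while its receptor PLXNB3 was lower, but the SEMA5A call was lost without shCTRL replicate 2 or 3 or shCCN3 replicate 1 or 3. SEMA7A was lower while PLXNC1 stayed below 1 CPM, and SEMA4D stayed below 1 CPM while PLXNB1 was at 27.8 CPM in shCTRL and 30.7 CPM in shCCN3 cells. PLXND1 rose while SEMA3E, its direct ligand, stayed at 13 counts or fewer in every library. Of other pairs named above, SEMA4C and PLXNB2 were both not called. SEMA3C was not called while PLXND1 rose and NRP1 fell. SEMA3B fell with both neuropilins, though its call was lost in some fits. SEMA6B fell while, of the A-type plexins, PLXNA3 fell, PLXNA2 rose and PLXNA1 and PLXNA4 were not called.

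Genes that work with these receptors were counted from 3 lists, also chosen with earlier results of these data known. The lists held 78 genes in all. Of the 65 tested, 36 passed an adjusted p of 0.05, 15 higher and 21 lower in shCCN3 cells (55.4%, beside the 33.4% of all genes), with a median log2 fold change of 0.02. Co-receptors and other ligands gave 7 higher and 7 lower of 20 tested, GTPases, exchange factors and effectors gave 7 higher and 11 lower of 39 tested, and processing proteases gave 1 higher and 3 lower of 6 tested. The 15 higher genes, and the 7 higher co-receptors and other ligands, include CHL1. It had 0 counts in shCTRL cells and entered the test only through shCCN3 cells, and the 55.4% includes it. None of the lists moved in 1 direction.

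PDGFRA, a growth factor receptor listed for its ties to neuropilins, fell furthest, from 305, 291 and 274 CPM in shCTRL to 51.2, 43.6 and 52.0 CPM in shCCN3 cells. This was a log2 fold change of -2.57 (SE 0.084, adjusted p = 9.44e-08). TGFBR2 fell by 0.84 on the log2 scale while TGFBR1, the other TGF-β receptor subunit, rose by 0.79. Of the other binding partners, ITGB8 (-1.64) and the proteoglycan SDC3 (-0.95) were lower, and the integrin subunit ITGA1 (0.86), the adhesion molecule L1CAM (0.77), a partner of NRP1 in the SEMA3A response, and PTK7 (0.52) were higher. VEGFA, a ligand of NRP1 that was picked out after its values were seen, was at 303, 294 and 286 CPM in shCTRL and 410, 362 and 402 CPM in shCCN3 cells, a log2 fold change of 0.41 (adjusted p = 0.00111). VEGFB, also a ligand of NRP1 and likewise picked out, fell by 0.45 on the log2 scale (adjusted p = 0.00210), and PGF overlapped between the groups (adjusted p = 0.304). VEGFC, of the same list and also picked out, rose by 0.20 on the log2 scale (adjusted p = 0.0237). VEGFA lies on chromosome 6, whose tested genes had a median of 0.34, as do PTK7, MICAL1 and RANBP9. CHL1, another partner of NRP1, is below 1 CPM and was likewise picked out after its values were seen. It had 0 counts in shCTRL and 19, 13 and 13 counts in shCCN3 cells.

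Downstream of plexins, LIMK1, the kinase that inactivates cofilin, fell from 75.5, 80.4 and 78.5 CPM to 36.4, 31.5 and 33.2 CPM, a log2 fold change of -1.21 (SE 0.071, adjusted p = 3.11e-06). LIMK1, CDK5 (-0.72) and ITGB8 lie on chromosome 7 with its median of -0.43. RND3, a member of the Rnd GTPases that bind plexins, fell by 0.72 on the log2 scale, and the focal adhesion kinase relative PTK2B fell by 1.27. DPYSL3, a collapsin response mediator, rose from 451, 452 and 427 CPM to 864, 811 and 856 CPM, a log2 fold change of 0.93 (SE 0.056, adjusted p = 3.62e-06). DPYSL2 of the same family, named after its values were seen, fell from 305 to 236 CPM, by 0.37 on the log2 scale (adjusted p = 0.000985). RRAS2, a Ras-family GTPase of the kind on which plexins act, had a log2 fold change of 0.78, and MICAL1 and RANBP9, both described as plexin partners, had 0.41 each. The called proteases, also named after their values were seen, were FURIN, which cleaves class 3 semaphorins and rose by 0.20 on the log2 scale (adjusted p = 0.0302), and the lower ADAMTS1 (-0.38), PCSK7 (-0.38), a proprotein convertase like FURIN, and MMP14 (-0.28).

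**Figure D5:**
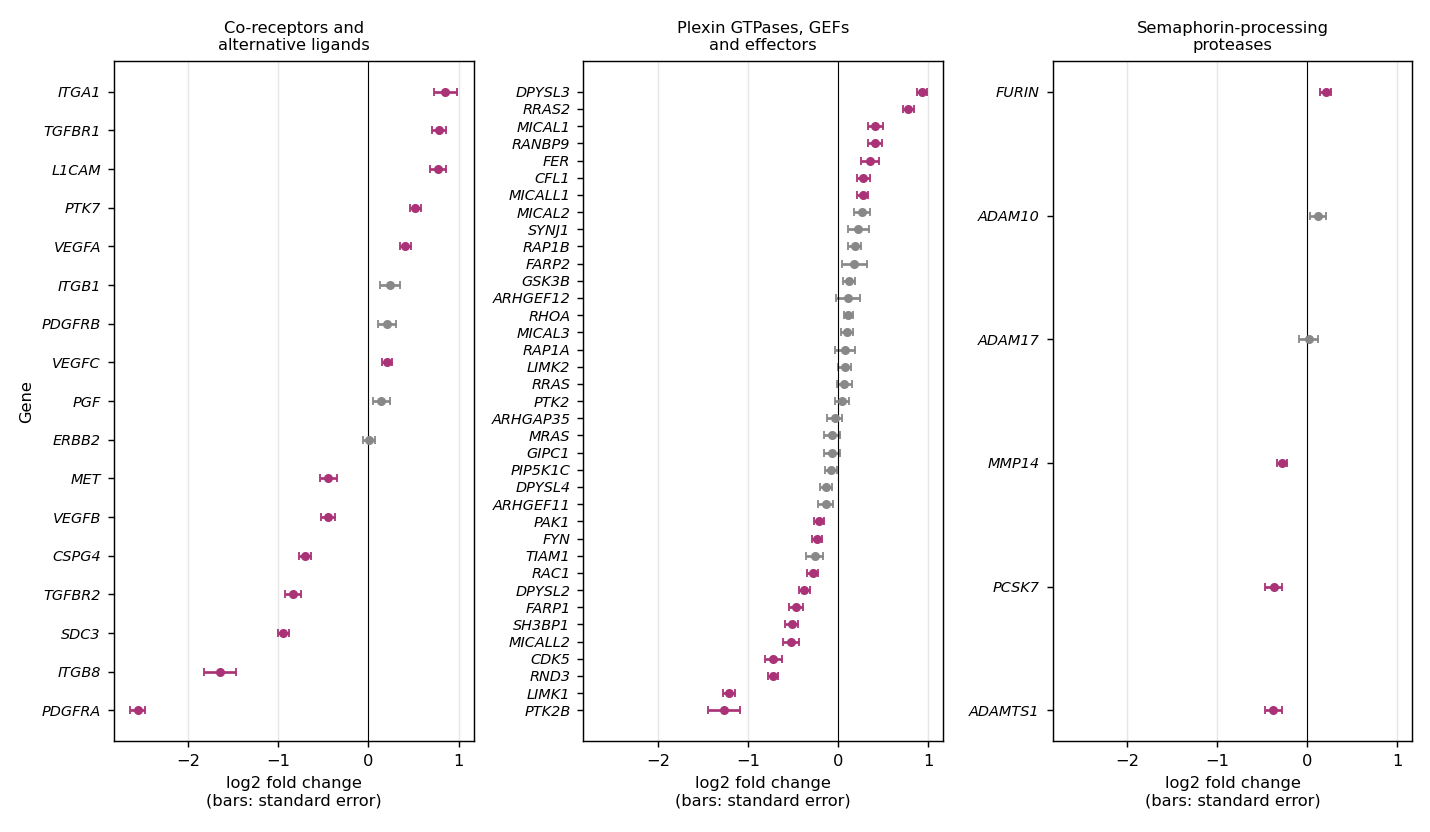
Log2 fold change (shCCN3 minus shCTRL) with standard error for the tested genes of the 3 lists with a group mean of at least 1 CPM; purple points have an adjusted p under 0.05 and gray points do not. Values run from -2.57 for PDGFRA to 0.93 for DPYSL3, with called genes on both sides of 0 in each panel.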

How the data were processed

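RNA was measured in 3 shCTRL and 3 shCCN3 libraries of Hs578T cells, made with a stranded mRNA kit. The authors deposited raw counts per gene, listed by NCBI Gene ID, with no normalization. The submitters' processing notes name GRCh38, bcl2fastq 2.20.0, Trimmomatic, HISAT2 2.1.0, StringTie 2.1.3d and DESeq2, without order or settings, and whether counting used the strand is not given in the sources used here, so values of overlapping and antisense genes are uncertain.

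Counts were analysed with edgeR 4.0.16 in R 4.3.3, using TMM normalization, the filter on low counts by group (minimum count 10, a cutoff of 0.152 CPM) and the quasi-likelihood test without a block. The filter kept 17419 genes. P-values were adjusted by the Benjamini-Hochberg method over all these genes, with a threshold of 0.05. The scripts were checked on simulated data. Exact permutation tests were two-sided and could not go below p = 0.1. No library was a copy of another. Deviations of same-numbered libraries from their group means correlated at 0.0891, -0.0256 and -0.0657, so no strong shared deviation was seen. This cannot show whether same-numbered libraries were prepared together.

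Levels per kilobase used the exons of GENCODE release 29, found for 26551 of the 46427 rows, among them all 31 members. Positions came from the RefSeq gene table of GRCh38.p14, which placed 44661 rows. The genes named were all members, and of the pathway lists up to 8 called genes of at least 1 CPM in each direction, plus CCN3, antisense rows and neighbouring genes. VEGFA, VEGFB, VEGFC, PGF, CHL1, DPYSL2, ITGB1 and the 4 called proteases fall outside this rule and were chosen after their values were seen. The members and lists were chosen with earlier results of these data known. Alternatives were DESeq2's size factors, upper-quartile normalization, no filter, a filter of at least 10 counts in all 6 libraries, the tests of DESeq2 1.42.0 and of limma 3.58.1 (voom), a replicate block, each library left out, and medians of the chromosome or the 24 nearest genes subtracted. The values of 1 marker gene are not reported here.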

Additional observations from a re-analysis of the deposited data

How the results depend on the processing

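The member counts, 12 lower and 5 higher, were the same under DESeq2's size factors, upper-quartile normalization, DESeq2, limma-voom and the fit without a filter, and no scaling moved the median of all genes by 0.1. With at least 10 counts in every sample 11 were lower and 6 higher. With the replicate block 11 members were lower and 5 higher, and SEMA3B was the call lost. Same-numbered libraries shared no strong deviation, though this cannot show whether they were prepared together, and 4887 genes in all were called with the block. With each library left out, 10 to 12 members were lower and 3 to 7 were higher. The lowest count of 3 came without shCTRL replicate 2, shCCN3 replicate 1 or shCCN3 replicate 3. In these fits 4181, 4484 and 4800 genes in all were called, against 5825 in the main fit. The highest of 7 came without shCCN3 replicate 2, the library of lowest depth, when 7229 genes in all were called. Of the 17 called members 12 were called under every alternative, and PLXNA2, SEMA3B, SEMA4A, SEMA4G and SEMA5A were not. Directions turned for members that were not called: PLXNA1 (0.030 without shCCN3 replicate 2, range over left-out libraries -0.10 to 0.030), PLXNC1 (0.56 without shCTRL replicate 3, -0.85 to 0.56), SEMA3C (0.06 without shCTRL replicate 1 and 0.16 without shCCN3 replicate 2, -0.21 to 0.16) and SEMA6D (0.0014 without shCTRL replicate 2, -0.31 to 0.0014). With the median of their chromosome or nearest genes subtracted all 17 called members kept their sign, but against the nearest genes SEMA5A went from 0.29 to 0.16 and SEMA3B from -0.30 to -0.20, and SEMA3A went from -0.62 to -0.15. The cause of these shifts was not tested. Depth limits the 8 members below 1 CPM, of which 3 could not be tested.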
